A study of Mus musculus with 6 samples.

Results

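The nuclear genes for the subunits of the oxidative phosphorylation (OXPHOS) complexes were examined in osteoblasts (OBs) forming ectopic bone. The members were chosen by symbol (Nduf followed by a, b, c, s or v and a number, *Sdha* to *Sdhd*, names starting in Uqcr, Cox4 to Cox8 names, and Atp5a to *Atp5l* names), and 81 of the 23284 genes listed in the data matched. They comprised 36 symbols of complex I, 4 of complex II, 8 of complex III, 18 of complex IV and 14 of complex V, plus *Cox4nb*. *Cox4nb* encodes a subunit of the membrane protein complex of the endoplasmic reticulum and no respiratory subunit, and it was kept only in counts over all members. *Cox7a2l*, counted here with complex IV, is better known as a factor of respiratory supercomplexes, and *Ndufa4*, counted by its name with complex I, is regarded today as a subunit of complex IV.

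OBs were sorted by fluorescence from bone that formed in a BMP-2-containing collagen sponge under the skin of male *Col2.3*-ECFP mice, whose OBs fluoresce cyan through a reporter under a type I collagen promoter. Samples from day 10 (n = 3) and day 14 (n = 3) after implantation were compared, and CD45+ cells and dead cells had been gated out. All samples carried the same reporter and received the same implant, which held 2.5 μg of BMP-2 according to the methods, and the mice were 12 to 16 weeks old. Collagenase was applied once to day 10 bone and repeated for day 14 bone, and an effect of this extra digestion cannot be told apart from one of the day. The sample titles give day 14 for the whole later group, whereas the free-text descriptions give day 14, 15 and 16 for its replicates 1, 2 and 3. The labels call the samples biological replicates, without saying which mice each came from, so the p-values measure only the spread between these samples.

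The OXPHOS system lies in the inner mitochondrial membrane. Complexes I (NADH dehydrogenase) and II (succinate dehydrogenase) pass electrons to ubiquinone, complex III passes them on to cytochrome c and complex IV to oxygen, while complex V (ATP synthase) uses the resulting proton gradient to make ATP. Most subunits are encoded in the nucleus and made in the cytosol, and a few central ones are encoded by mitochondrial DNA. OBs use glycolysis as well as OXPHOS to pay for the synthesis of bone matrix.

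Levels are given as FPKM, that is, fragments scaled by transcript length and by the number of mapped reads, so that they are corrected for transcript length. Differences are given on the log2(FPKM + 0.1) scale, as day 14 minus day 10, and fold changes on this scale understate the change of low genes. The number of mapped reads, estimated from the smallest steps between low values, lay between 4550091 and 7776817 per sample, and 3 reads on 1000 usable bases then correspond to 0.386 to 0.659 FPKM. The members had a median of 250.3 estimated reads per gene and sample, and 11 of them had fewer than 10 estimated reads in at least 1 sample.

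The identity of the sorted cells was first checked with marker genes. All 10 OB markers were above 0 in all samples, with a summed level of 53902 to 103106 FPKM on day 10 and 39437 to 77116 FPKM on day 14. The sums overlapped, but all 10 had a lower mean on day 14, against 53.5% of all genes tested. Their median log2 difference was −1.03, larger in size than that of the subunits (−0.21). In 1 of the 10, every day 14 sample lay below every day 10 sample, against 6.67% of all genes. The lowest Benjamini-Hochberg adjusted p of these markers in limma was 0.309. The summed level of 10 myeloid markers was 46.2 to 178.6 FPKM on day 10 and 407.4, 27.3 and 832.8 FPKM in day 14 replicates 1, 2 and 3. That of 10 chondrocyte markers was 754.5 to 1518 FPKM on day 10 and 227.9, 2391 and 191.7 FPKM in the same day 14 samples. Day 14 replicate 2 thus had the highest cartilage signal and the lowest myeloid signal of the 6 samples. Skeletal muscle markers (12 genes) summed to 2.0 to 10.4 FPKM in all samples, with the adult myosin chain *Myh2* at 0 to 0.069 FPKM. Erythroid markers summed to at most 130.9 FPKM and adipocyte markers to at most 30.8 FPKM. Endothelial markers summed to 1.68 to 3.53 FPKM on day 10 and to 4.89 to 8.42 FPKM on day 14. Osteoclast markers summed to 447.2 to 490.3 FPKM and to 628.3 to 676.3 FPKM on these days, most of it *Ctsk*. Both sums were thus higher on day 14 without overlap, although 6 of the 8 osteoclast markers had a lower mean. The part of the lower OB markers and of these other cell types in the results below was not tested, and fewer cells of a type and less RNA per cell cannot be told apart in such samples.

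The subunits were abundant transcripts on both days. All members together took 1.90%, 1.62% and 1.87% of the summed FPKM in day 10 replicates 1, 2 and 3, and 1.36%, 1.59% and 1.53% in day 14 replicates 1, 2 and 3, with no overlap between the days. Of the 81 members, 70 had a mean above 10 FPKM over the 6 samples, and 9 had a mean above 200 FPKM. The highest mean levels belonged to *Atp5b*, the catalytic β subunit of ATP synthase, at 439.3 ± 33.3 FPKM on day 10 (SD, n = 3) and 392.0 ± 71.4 FPKM on day 14, and to *Cox6a1*, the common form of COX6A, at 474.5 ± 68.4 and 325.7 ± 73.7 FPKM. In the order of all listed genes, *Cox6a1* held rank 95 on day 10 and rank 175 on day 14. The means of the pair lay within the larger SD of each other on either day. Between the days, *Atp5b* overlapped and *Cox6a1* did not.

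Listed levels within a complex were far from equal. Among members above 10 FPKM, the highest mean was 31.0 times the lowest in complex I (*Ndufa3* at 331.9 FPKM and *Ndufb4* at 10.7 FPKM, both accessory subunits). The same ratio was 37.0 in complex IV (*Cox6a1* and *Cox4i2*) and 29.0 in complex V (*Atp5b* and *Atp5g1*), where the lowest genes are less common isoforms of a subunit. Without these isoforms it was 17.3 in complex IV (lowest *Cox7a2l*, 23.1 FPKM, the supercomplex factor named above) and 9.54 in complex V (lowest *Atp5h*, 43.5 FPKM). Of the read-length stretches (75 bases) of *Ndufb4* and *Atp5h*, 35.2% and 40.3% also occur in other annotated genes. The part of this sharing in their low listed levels was not tested. Complexes II and III were more even, with ratios of 2.13 (*Sdhd* and *Sdhc*, the membrane anchors) and 5.83 (*Uqcrq* and *Uqcrc2*). Shorter transcripts had higher FPKM, with a Spearman rho of −0.44 between transcript length and mean level across these 70 genes, which share libraries and are not independent. The 7 core nuclear subunits of complex I, which carry its flavin and iron-sulfur clusters, had a median level of 44.3 FPKM, and the 29 accessory subunits one of 63.4 FPKM.

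The summed level of each complex had a lower mean on day 14. Complex I summed to 3421, 2937 and 3083 FPKM in day 10 replicates 1, 2 and 3, and to 2400, 2895 and 2691 FPKM on day 14. Complex III summed to 1132, 1053 and 1068 FPKM on day 10 and to 818.1, 998.5 and 886.9 FPKM on day 14, and complex IV to 1994, 1802 and 1816 FPKM and to 1432, 1724 and 1543 FPKM. In these 3 complexes the days did not overlap, but day 14 replicate 2 came close to the lowest day 10 sample in each. Complex II summed to 323.3, 270.4 and 295.7 FPKM on day 10 and to 226.1, 271.5 and 280.6 FPKM on day 14, and complex V to 1991, 1821 and 1808 FPKM and to 1402, 1862 and 1635 FPKM, and here the days overlapped. The means were 15.4%, 12.5%, 16.9%, 16.3% and 12.8% lower on day 14 for complexes I to V in that order. The make-up of the pool hardly moved, with complex I taking 37.2% to 38.6% of the members' FPKM in every sample and complex IV 21.9% to 22.8%.

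**Figure D1:**
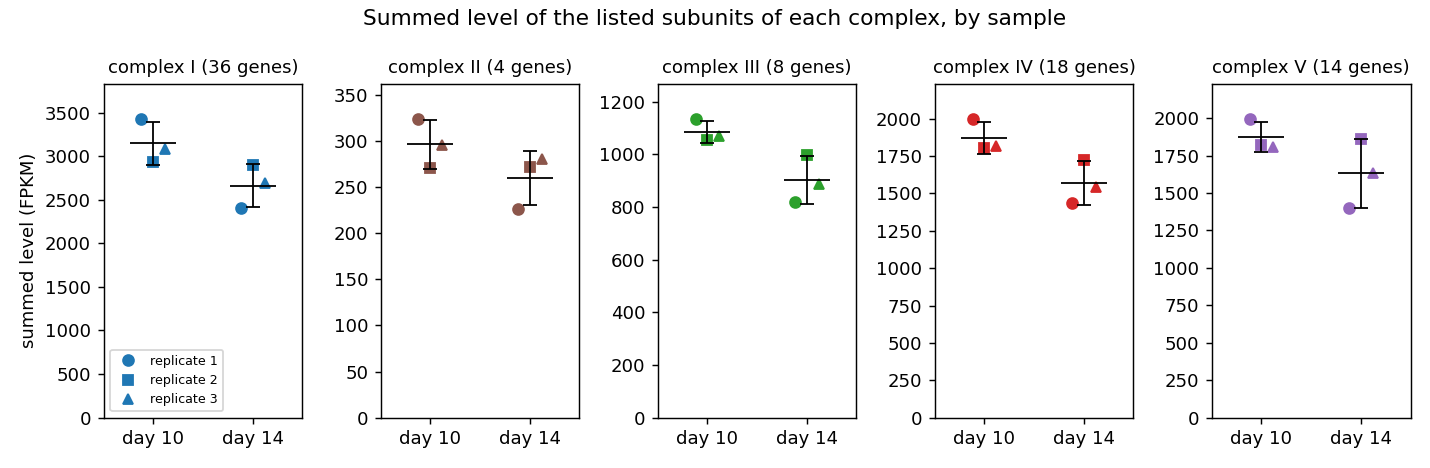
Summed FPKM of the listed subunits of complexes I to V (y axis, from 0) in the 3 samples of day 10 and the 3 of day 14, with symbols for the replicates and black bars for mean ± SD. Day 14 replicate 1 is the lowest sample in every complex, and day 14 replicate 2 lies close to the day 10 samples or, in complex V, above 2 of them.

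Most subunits had a slightly lower mean on day 14, and none passed the test across all genes. In limma, 80 of the 81 members had a mean above 0.1 FPKM and were tested, and 0 of 80 had a Benjamini-Hochberg adjusted p under 0.05 (the lowest was 0.328), against 3 of all 19526 genes tested (0.0154%). At an unadjusted p under 0.05 in limma, 8 members were lower on day 14 against 4.4% of all genes, and 1 member was higher against 5.6% of all genes. The median log2 difference was −0.21 over the 80 members and −0.04 over all genes. Of the 80, 73 had a lower mean on day 14, against 53.5% of all genes, and in 20 every day 14 sample lay below every day 10 sample, against 6.67% of all genes. In 1 member, *Cox7c*, every day 14 sample lay above every day 10 sample, against 7.59% of all genes.

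The same counts were taken above 10 FPKM, a level set after seeing the data, where counting error is generally smaller. It was not small for every member at this level. *Cox4i2* had only 5.90 estimated reads in day 14 replicate 1. *Ndufa11*, whose days were separate, had 21.9 to 40.0 estimated reads per sample. Its lowest day 10 value was 15.53 FPKM and its highest day 14 value 15.11 FPKM. Of the 70 members, 65 had a lower mean on day 14, against 45.3% of the 4605 genes at this level, and in 20 the day 14 samples all lay below the day 10 samples, against 8.99%. The median difference was −0.19 for these members and 0.04 for these genes. The members' median was close to this in each class of transcript length. Under 600 bases it was −0.21 (24 genes, 22 lower), and −0.02 for the 167 other genes of that class (53.9% lower). At 600 to 1000 bases it was −0.19 (27 genes, 24 lower), and 0.00 for 792 other genes (49.7% lower). In the 3 longer classes (14, 3 and 2 members) every member had a lower mean on day 14, against 50.7%, 44.1% and 36.5% of the other genes. The share of other genes that were lower thus varied with transcript length.

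The first samples of each day lay farthest apart. Day 14 replicate 1 held the lowest value of 49 of the 70 members above 10 FPKM, and also of 33.9% of all genes at this level. Day 10 replicate 1 held the highest value of 41 of the 70 members, and of 21.6% of these genes. Relative to each gene's own mean over the 6 samples, the median of the members was 0.21, 0.03 and 0.08 in day 10 replicates 1, 2 and 3, and −0.24, 0.01 and −0.07 in day 14 replicates 1, 2 and 3. Day 14 replicate 2 thus lay just below day 10 replicate 2, the lowest of the day 10 samples. The medians of all genes above 10 FPKM were −0.04, −0.02 and −0.01 on day 10 and −0.12, 0.09 and 0.09 on day 14, so that the members' median minus that of all genes was 0.25, 0.05 and 0.09 in the day 10 samples and −0.11, −0.08 and −0.16 in the day 14 samples. Without day 14 replicate 1, the median difference of the members was −0.13 instead of −0.21, that of all genes tested was −0.10, and 67 of 80 members were lower against 57.1% of all genes. Without day 10 replicate 1, these medians were −0.15 and −0.04. Above 10 FPKM, 60 of 70 members were lower without day 14 replicate 1, against 37.0% of the genes at this level. The same values without day 10 replicate 1 were 62 of 70 and 45.0%. The count of 8 members with an unadjusted p under 0.05 in limma became 2 without day 10 replicate 1, 4 without day 14 replicate 1, 14 without day 14 replicate 2 and 4 without day 14 replicate 3. It was 16 with median-of-ratios scaling of the samples and 1 in a fit without the mean-variance trend.

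**Figure D2:**
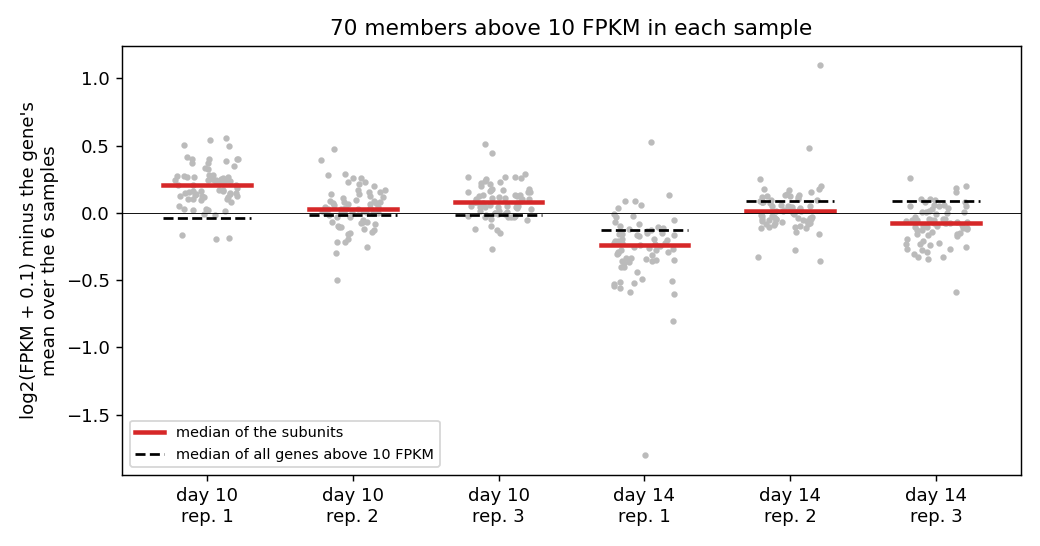
Each grey point is 1 of the 70 members with a mean above 10 FPKM, plotted as log2(FPKM + 0.1) minus its mean over the 6 samples (y axis) in each sample (x axis), with the median of the members as a red line and that of all 4605 genes above 10 FPKM as a dashed black line. The red line lies above the dashed line in the 3 day 10 samples and below it in the 3 day 14 samples, with day 14 replicate 1 lowest at −0.24.

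Complex I contributed 4 of the 8 members that were lower at an unadjusted p under 0.05. *Ndufb7*, an accessory subunit on the intermembrane side of the membrane arm (chromosome 8, 83566671 to 83571626, plus strand, mm10), had 89.8, 76.03 and 84.9 FPKM in day 10 replicates 1, 2 and 3 and 54.5, 55.5 and 64.4 FPKM in day 14 replicates 1, 2 and 3. Its days were well apart, and its log2 difference was −0.52 (SE 0.15, unadjusted p = 0.00665, adjusted p = 0.328 in limma). *Ndufb8*, another accessory subunit of the membrane arm (chromosome 19, 44548572 to 44555440, minus strand), had 221.0, 156.9 and 174.6 FPKM on day 10 and 122.2, 149.4 and 133.0 FPKM on day 14 without overlap. *Ndufa9*, an accessory subunit that binds NADPH at the foot of the matrix arm (chromosome 6, 126821721 to 126849136, minus strand), had 60.4, 51.2 and 51.3 FPKM on day 10 and 36.7, 42.3 and 45.6 FPKM on day 14.
*Ndufa12*, an accessory subunit of the matrix arm (chromosome 10, 94198720 to 94221443, plus strand), had 27.7, 28.3 and 25.1 FPKM on day 10 and 19.8, 18.1 and 22.4 FPKM on day 14. The log2 differences of these last 3 were −0.44 (SE 0.18), −0.39 (SE 0.15) and −0.43 (SE 0.15). In complex I, 33 of 36 members were lower, against 53.5% of all genes tested, with a median of −0.19. In 11, all of them accessory subunits, day 14 lay wholly below day 10, as in 6.67% of all genes. The 7 core subunits were all lower in mean, between −0.36 and −0.05, and the days overlapped in each. *Ndufb4* had the highest positive difference of the complex, 0.37 (SE 0.23), at 9.1, 7.4 and 11.5 FPKM on day 10 and 15.1, 10.3 and 10.9 FPKM on day 14, and 35.2% of its 75-base runs occur in other annotated genes.

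Complex II has no mitochondrially encoded subunit and is also an enzyme of the tricarboxylic acid (TCA) cycle. All 4 of its members had a lower mean on day 14, against 53.5% of all genes tested. The days overlapped in all 4, and day 14 lay wholly below day 10 in 6.67% of all genes. *Sdha*, the flavoprotein, had 65.9, 58.0 and 66.2 FPKM on day 10 and 57.4, 60.7 and 67.1 FPKM on day 14, with a difference of −0.04 (SE 0.14). Without day 14 replicate 1 its difference was 0.01. *Sdhb*, the iron-sulfur subunit, had 104.0, 82.5 and 96.3 FPKM on day 10 and 57.6, 80.2 and 83.1 FPKM on day 14, and its difference of −0.37 (SE 0.19) was the most negative of the complex. *Sdhd*, a membrane anchor, had the highest level of the complex, with 94.3 ± 9.8 FPKM on day 10 and 84.5 ± 4.3 FPKM on day 14 (SD, n = 3).

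In complex III, 7 of 8 members were lower (53.5% of all genes tested) and 4 had day 14 wholly below day 10 (6.67% of all genes). *Uqcrq*, a small subunit near the ubiquinone site and the most abundant of the complex (chromosome 11, 53427922 to 53430831, minus strand), had 246.9, 224.2 and 206.0 FPKM on day 10 and 131.5, 176.6 and 163.4 FPKM on day 14. Its difference was −0.53 (SE 0.17, unadjusted p = 0.0149, adjusted p = 0.377 in limma). *Uqcr11*, the smallest subunit (chromosome 10, 80402997 to 80406830, minus strand), had 179.0, 153.8 and 181.3 FPKM on day 10 and 122.8, 147.1 and 127.9 FPKM on day 14, a difference of −0.37 (SE 0.16). The Rieske iron-sulfur protein *Uqcrfs1* and the small subunit *Uqcr10* were the others with non-overlapping days. *Uqcrb*, a ubiquinone-binding subunit, was the exception, with 82.3, 85.0 and 100.5 FPKM on day 10 and 88.2, 96.5 and 112.2 FPKM on day 14, a difference of 0.15 (SE 0.16).

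In complex IV, 15 of 18 members were lower (53.5% of all genes tested) and 4 had day 14 wholly below day 10 (6.67% of all genes). *Cox6a1* (chromosome 5, 115345642 to 115348981, minus strand) had 552.5, 446.1 and 424.9 FPKM on day 10 and 258.4, 404.4 and 314.3 FPKM on day 14 without overlap. Its difference was −0.56 (SE 0.22, unadjusted p = 0.0344, adjusted p = 0.457 in limma). *Cox5a*, *Cox6b1* and *Cox7a2* were the other members with separate days. By contrast, *Cox8a* stood at 215.0, 215.1 and 218.6 FPKM on day 10 against 220.0, 210.0 and 189.8 FPKM on day 14, and *Cox4i1*, the common form of the regulatory subunit COX4, at 399.0, 379.5 and 355.6 FPKM and 317.1, 383.5 and 346.3 FPKM. The *Cox4i1* gene (chromosome 8, from 120668222) begins inside the span of *Cox4nb* on the other strand (to 120668573), and reads from the overlap cannot be told apart without strand.

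In complex V, all 13 members tested had a lower mean (53.5% of all genes), between −1.99 and −0.08. Only *Atp5j*, the coupling factor 6 subunit, had day 14 wholly below day 10, 1 of 13 against 6.67% of all genes, which is near that share. *Atp5b* had 477.2, 414.8 and 425.9 FPKM on day 10 and 323.0, 465.7 and 387.2 FPKM on day 14, with a difference of −0.18 (SE 0.20). Day 14 replicate 2 was thus above 2 of the day 10 samples. *Atp5c1*, the γ subunit of the rotor shaft, had 125.2, 126.0 and 126.2 FPKM on day 10 and 110.6, 134.0 and 114.3 FPKM on day 14, and its difference of −0.08 (SE 0.14) was the smallest of the complex. Two-sided exact permutation tests of the named members gave p = 0.1 wherever the days did not overlap, which is the smallest p that 3 samples against 3 allow.

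**Figure D3:**
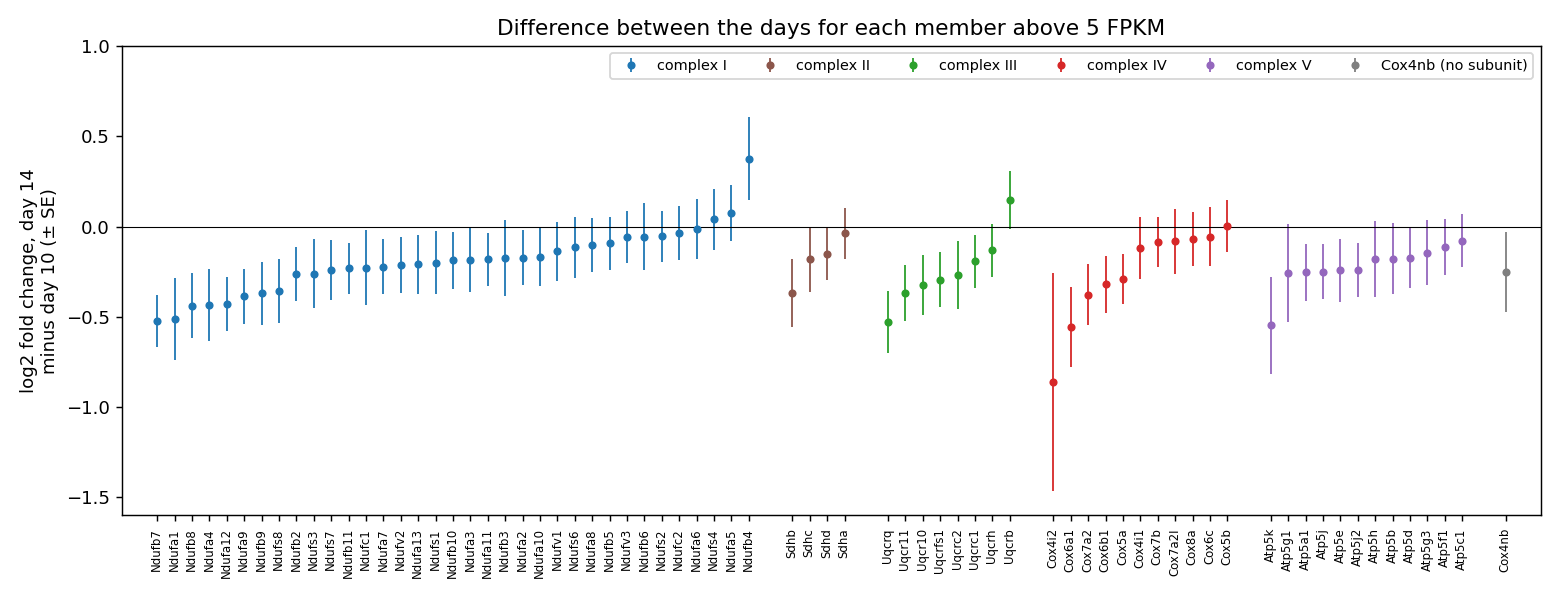
Log2 difference between the days (y axis, day 14 minus day 10, with bars of ± SE from limma) for each member with a mean above 5 FPKM, ordered within complexes I to V and coloured by complex, with *Cox4nb* last. Most points lie below 0, the largest bar belongs to *Cox4i2*, and 5 members above 10 FPKM lie above 0, with *Ndufb4* highest at 0.37.

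Of the 81 members, 10 had a mean under 5 FPKM in spite of the high level of their partners, and they were of 2 kinds. The first kind were 6 tissue forms of complex IV subunits (*Cox6a2*, *Cox7a1* and *Cox8b*, the forms of heart and skeletal muscle, and *Cox6b2*, *Cox7b2* and *Cox8c*, known from testis), whose transcripts share no 75-base run with another annotated gene. The second kind were *Ndufs5*, *Cox7c*, *Atp5l* and *Atp5g2*, which are expressed in most tissues and whose transcripts share between 32.4% and 86.9% of their 75-base runs exactly with other annotated genes. Such runs matter because the reads were 75 bases long and a read inside a shared run cannot be placed by its sequence. Among the other 71 members only *Ndufa12*, *Atp5h*, *Ndufb4* and *Ndufb6* shared more than 30%, and 46 of the 81 shared none. Whether the handling of such reads set the low values was not tested.

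**Figure D4:**
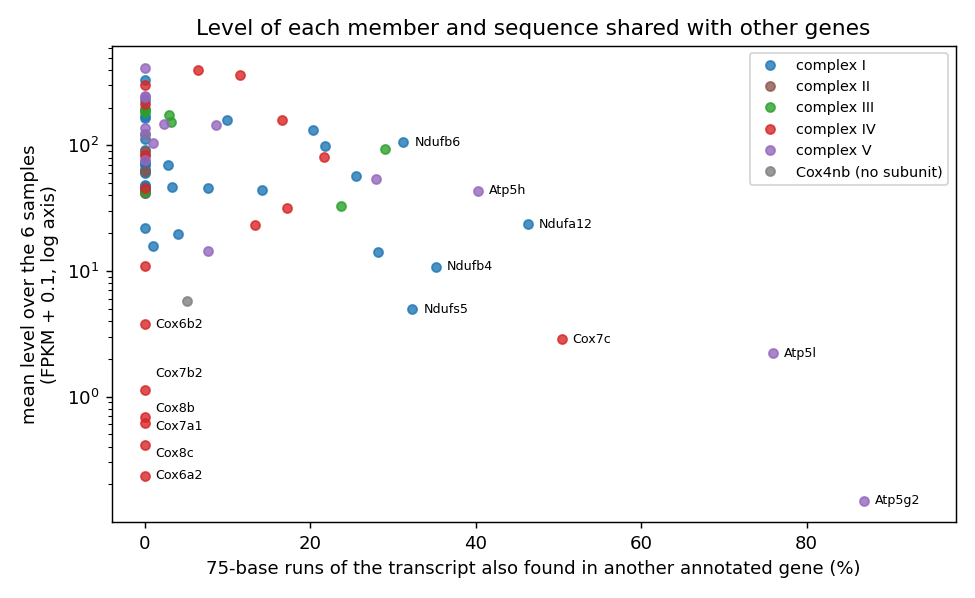
Mean level over the 6 samples (y axis, FPKM + 0.1, log axis) of each of the 81 members against the percentage of 75-base runs of its transcript that also occur in another annotated gene (x axis), coloured by complex. The 3 members above 50% (*Cox7c*, *Atp5l* and *Atp5g2*) are all under 5 FPKM, and 6 tissue forms of complex IV are low with 0% shared.

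*Cox7c*, a small subunit of complex IV (chromosome 13, 86044816 to 86046904, minus strand), was the only member higher on day 14 at an unadjusted p under 0.05. It had 1.69, 0.754 and 1.60 FPKM on day 10 and 4.54, 5.60 and 2.35 FPKM on day 14, a difference of 1.55 (SE 0.43, unadjusted p = 0.00676, adjusted p = 0.329 in limma). The days did not overlap, but these levels correspond to only 1.35 to 10.8 estimated reads per sample, and every other common subunit of complex IV had a mean above 20 FPKM. Its coding sequence is shown beside those of its annotated copies because 50.4% of the 75-base runs of its transcript are shared with them. In GENCODE vM21 (mm10), the processed pseudogene *Gm12338* (chromosome 11, 75599763 to 75599954, minus strand) equals all 189 coding bases before the stop codon, and the transcribed pseudogene *Gm10012* (chromosome 17, 25901856 to 25902227, plus strand) differs at 2 of them, G30C and G107A. Positions count from 1 at the A of the start codon, the base of *Cox7c* comes first, and capitals mark the positions at which *Cox7c* and *Gm10012* differ.
Cox7c: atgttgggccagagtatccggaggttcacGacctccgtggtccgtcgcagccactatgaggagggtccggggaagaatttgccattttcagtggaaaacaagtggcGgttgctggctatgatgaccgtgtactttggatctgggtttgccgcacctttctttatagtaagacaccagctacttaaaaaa
Gm10012: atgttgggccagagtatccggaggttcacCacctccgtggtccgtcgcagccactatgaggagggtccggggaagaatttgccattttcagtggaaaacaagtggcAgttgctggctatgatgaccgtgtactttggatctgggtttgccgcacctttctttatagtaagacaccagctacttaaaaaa
*Gm12338* is not printed, since its stretch is the same as that of *Cox7c*. *Gm10012* was listed at 2.48 FPKM in day 10 replicate 1, at 1.33 FPKM in day 14 replicate 1 and at 0 in the other 4 samples.

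*Ndufs5*, an accessory subunit of complex I (chromosome 4, 123712710 to 123718202, minus strand), was listed at 29.1 FPKM in day 10 replicate 1 and at 0.0018 to 0.013 FPKM in the 5 other samples. Its processed pseudogene *BC002163* (chromosome 16, 42955631 to 42955949, plus strand) was listed at 44.7, 72.5 and 65.8 FPKM on day 10 against 50.8, 66.9 and 51.7 FPKM on day 14, with its lowest value in the sample in which *Ndufs5* was high. The sum of the pair was 73.8, 72.5 and 65.8 FPKM on day 10 and 50.8, 66.9 and 51.7 FPKM on day 14, a level like that of other complex I subunits. The pseudogene differs from the 318 coding bases of *Ndufs5* at 2 positions, T81C and A105G, and its longest identical run is 213 bases. The first 150 coding bases are shown with these positions in capitals, *Ndufs5* first.
Ndufs5: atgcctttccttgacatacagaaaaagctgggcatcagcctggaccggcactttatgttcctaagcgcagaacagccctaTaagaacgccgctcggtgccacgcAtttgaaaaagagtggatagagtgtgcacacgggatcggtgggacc
BC002163: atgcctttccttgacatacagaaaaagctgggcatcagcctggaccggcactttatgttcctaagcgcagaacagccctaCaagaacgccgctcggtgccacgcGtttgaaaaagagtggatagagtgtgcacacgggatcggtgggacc
The remaining coding bases are the same in both genes. The log2 difference of *Ndufs5*, −2.71 (SE 1.96), rests on day 10 replicate 1 alone.

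*Atp5l*, the g subunit of ATP synthase (chromosome 9, 44912557 to 44920742, minus strand), was listed at 4.01, 2.98 and 1.68 FPKM on day 10 against 2.87, 1.11 and 0 FPKM on day 14. It shares runs with 10 annotated genes, more than any other of these 4 members. *Atp5g2*, one of the genes for the c subunit (chromosome 15, 102662864 to 102672352, minus strand), was listed at 0.292 FPKM in day 10 replicate 3 and at 0 in the other 5 samples, and it was the only member left out of the limma fit.

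Isoform pairs were compared within a sample, as shares of the pair's FPKM and as log2 ratios. The shares do not depend on the scaling of that sample. The ratios, taken after adding 0.1 FPKM to both forms, do depend on it where a form is near 0. In the 5 samples with *Cox6a2* at 0, its log2 ratio to *Cox6a1* still ran from −12.4 to −11.3. The c subunit of ATP synthase is encoded by *Atp5g1*, *Atp5g2* and *Atp5g3*, which yield the same mature protein. *Atp5g3* stood at 258.6, 256.1 and 249.6 FPKM on day 10 against 187.6, 259.0 and 251.7 FPKM on day 14, and *Atp5g1* took 6.10%, 4.76% and 6.17% of the pair's FPKM on day 10 and 4.89%, 7.01% and 4.17% on day 14. The shares overlapped between the days. *Cox4i2*, the form of COX4 known from lung and from cells at low oxygen (chromosome 2, 152754173 to 152765037, plus strand), had 13.4, 12.6 and 10.9 FPKM on day 10 and 2.53, 19.5 and 5.9965 FPKM on day 14.
Its share of COX4 was thus 3.24%, 3.21% and 2.97% on day 10 and 0.791%, 4.83% and 1.70% on day 14, so that the day 10 samples were alike and the day 14 samples spread on both sides of them. The highest share was that of day 14 replicate 2, in which the chondrocyte marker *Col2a1* was also highest, at 687.9 FPKM against 12.1 and 8.75 FPKM in day 14 replicates 1 and 3. The part of cartilage cells in this difference was not tested.

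The muscle forms were close to the detection limit. *Cox6a2* was listed at 0.806 FPKM, *Cox8b* at 3.51 FPKM and *Cox7a1* at 2.29 FPKM in day 10 replicate 2, where the highest value of each lay. Apart from 0.810 FPKM of *Cox7a1* in day 10 replicate 3, all 3 were listed at 0 in the other samples. The nominal difference of *Cox7a1* (unadjusted p = 0.0483 in limma) rests on these values alone. Among the forms known from testis, *Cox6b2* was above 0 in all samples, with 0.807, 2.87 and 4.06 FPKM on day 10 and 4.32, 6.61 and 3.30 FPKM on day 14, and took at most 2.26% of COX6B. *Cox7b2* was listed at 0.609, 0.542 and 2.68 FPKM on day 10 against 1.96, 0 and 0.422 FPKM on day 14, and *Cox8c* was above 0 only in day 10 replicate 2 (1.36 FPKM) and day 14 replicate 3 (0.528 FPKM). The share of *Cox6b2* was 0.241%, 0.869% and 1.19% on day 10 and 1.72%, 2.26% and 1.21% on day 14, so that its days did not overlap, by a narrow margin between day 10 replicate 3 and day 14 replicate 3. Two-sided exact permutation tests of the log2 ratio in 7 pairs gave unadjusted p-values from 0.1 (*Cox6b2* over *Cox6b1*) to 1 and adjusted p-values of at least 0.7. As 0.1 is the smallest p that 3 samples against 3 allow, no pair could have passed 0.05.

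**Figure D5:**
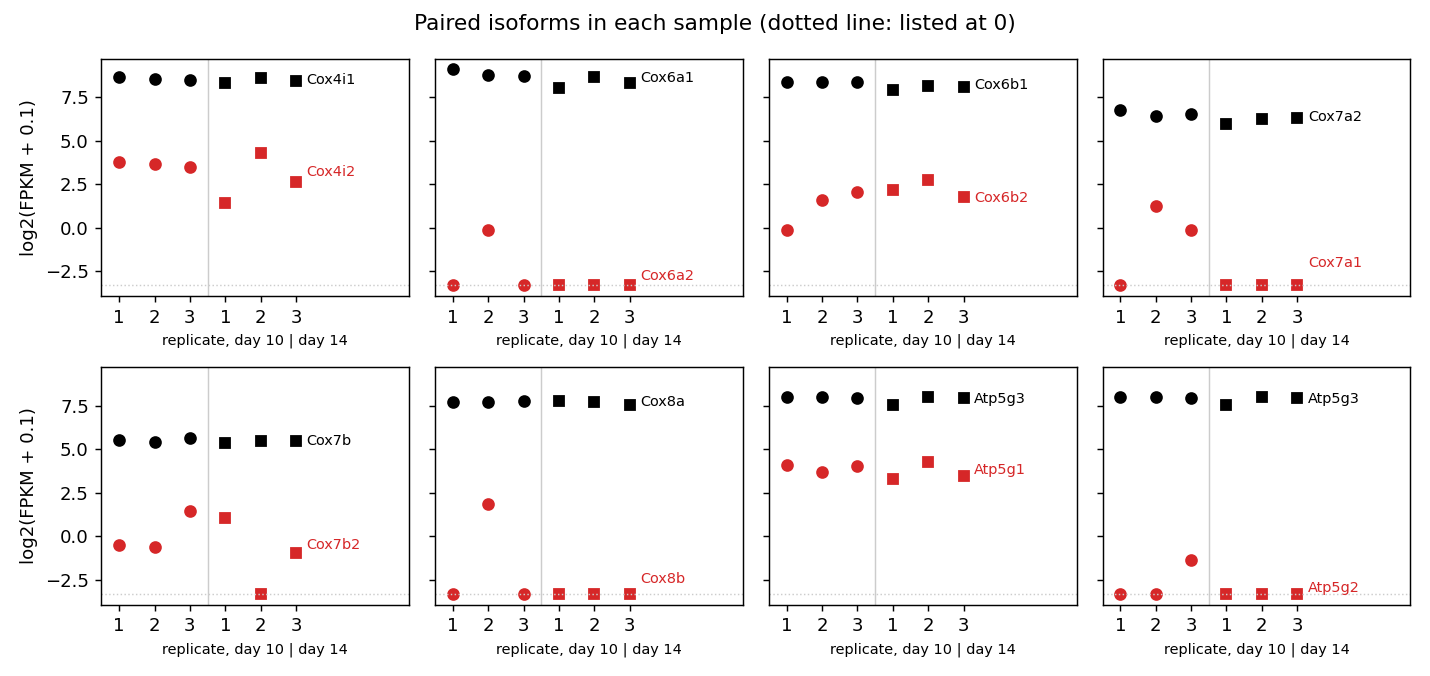
Levels of paired isoforms as log2(FPKM + 0.1) (y axis) in replicates 1, 2 and 3 of day 10 (circles) and day 14 (squares), with the common form in black, the other form in red and a dotted line at the value of 0 FPKM. The common form lies above the other form in every sample, and *Cox4i2* spreads from 2.53 to 19.5 FPKM on day 14.

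Other genes of the same pathway had medians closer to 0 than the subunits, and their counts stand beside 53.5% of all genes that were lower and 4.4% that were lower at an unadjusted p under 0.05. Among 15 further subunits and carriers measured (such as *Cyc1*, *Atp5o*, *Etfa* and *Atpif1*), 11 were lower and 4 higher on day 14 with a median of −0.12, and none had an unadjusted p under 0.05 in limma. The most positive of them was *Ndufa4l2*, a relative of *Ndufa4* known from hypoxia, with 44.0, 60.8 and 71.1 FPKM on day 10 and 107.3, 60.6 and 95.05 FPKM on day 14 (difference 0.57, SE 0.26). The most negative was *Dhodh*, a ubiquinone-linked enzyme of pyrimidine synthesis, with a difference of −0.45 (SE 0.21). Of 44 assembly factors, which are not part of the finished complexes, 27 were lower (61.4%) and 17 higher, with a median of −0.06, and 3 were lower at an unadjusted p under 0.05 in limma, shares near those of all genes. Their most negative was *2310030N02Rik*, the older symbol of the complex I factor *Ndufaf6* (−1.03, SE 0.43), and their most positive the complex I factor *Nubpl* (0.84, SE 0.39).

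Of 13 TCA cycle enzymes, 11 were lower (84.6%) with a median of −0.14. At an unadjusted p under 0.05 in limma, 2 of the 13 were lower, against 4.4% of all genes. In 3 of the 13, every day 14 sample lay below every day 10 sample, against 6.67% of all genes. The list thus shared these traits with the subunits, at a smaller median. *Suclg1*, a subunit of succinate-CoA ligase, had 49.3, 47.7 and 43.1 FPKM on day 10 and 28.8, 39.3 and 35.2 FPKM on day 14, a difference of −0.45 (SE 0.16), and its partner *Suclg2* had the most positive difference of the list, 0.24 (SE 0.24). Of 15 regulators of mitochondrial biogenesis, 7 were lower and 8 higher, with a median of 0.01. Among them, 1 was lower at an unadjusted p under 0.05 in limma, and 3 had day 14 wholly below day 10. Of the 15 further subunits and carriers and the 44 assembly factors, 1 and 2 had day 14 wholly below day 10. *Ppargc1a*, the coactivator PGC-1α, was low, with 0.652, 0.755 and 0.841 FPKM on day 10 and 1.36, 0.431 and 0.543 FPKM on day 14. The transcription factors *Nrf1* (difference −0.17, SE 0.25), *Gabpa* (0.10, SE 0.22) and *Esrra* (−0.39, SE 0.27) and the mitochondrial DNA-binding protein *Tfam* (0.01, SE 0.21) differed by less than 2 SE. The most negative regulator was *Polrmt*, the mitochondrial RNA polymerase, with 4.99, 4.70 and 3.43 FPKM on day 10 and 2.89, 2.84 and 1.95 FPKM on day 14 (−0.75, SE 0.28), and the most positive was *Tfb2m*, its partner at the promoter (0.38, SE 0.39). None of these lists held a gene with an adjusted p under 0.05 in limma. The 13 mitochondrially encoded subunits were not analysed here.

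The promoters of the members were searched for short motifs of factors known to act on OXPHOS genes, on both strands from 250 bases before to 50 bases after the start (RefSeq, GRCm38.p6). A promoter was found for 66 of the 81 members. The NRF1 core CGCATGCG was present for 9 of 66 members (13.6%) and for 2.07% of the 27025 genes with a promoter, and the YY1 motif AAGATGGCG for 7 (10.6%) and 1.64%. The ETS and GABPA core CCGGAAGT was present for 5 (7.58%) and 4.31%, and the motif TCAAGGTCA of estrogen-related receptors for 2 (3.03%, *Atp5g3* and *Sdhd*) and 0.466%. The median GC content was 57.8% for the members' promoters and 52.8% for all. Stretches of 4 members with separate days are shown with the motif in capitals: the ETS core of *Uqcr11* and the NRF1 core of *Cox6a1*, *Atp5j* and *Ndufa11*.
Cox6a1, chr5:115349086-115349145, minus strand: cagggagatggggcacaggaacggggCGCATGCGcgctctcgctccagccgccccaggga
Atp5j, chr16:84835090-84835149, minus strand: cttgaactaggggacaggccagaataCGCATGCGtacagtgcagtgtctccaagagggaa
Ndufa11, chr17:56717677-56717736, plus strand: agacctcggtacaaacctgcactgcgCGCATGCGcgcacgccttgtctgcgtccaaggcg
Uqcr11, chr10:80406854-80406913, minus strand: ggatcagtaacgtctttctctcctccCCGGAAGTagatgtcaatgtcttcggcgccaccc
The motifs begin 161, 147, 59 and 66 bases before the start site, in this order. Not shown are an NRF1 core of *Uqcr11* and YY1 motifs of *Atp5j* and of *Ndufa9*, whose days were also separate. The NRF1 core also occurs in members with overlapping days, such as *Atp5k*, *Ndufa8* and *Uqcrc1*. A link between motifs and the difference between the days was not tested. Both *Nrf1* and *Gabpa* themselves differed between the days by less than their SE. A match of letters is no measured binding, and promoters without a match say nothing about the factor.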

How the data were processed

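RNA-seq of ECFP+ OBs from day 10 (n = 3) and day 14 (n = 3) was used. Reads of 75 bases (single-end) had been aligned by the authors to mm10 using TopHat2 2.0.13, Bowtie2 2.2.3 and SAMtools 0.1.19, and deposited FPKM values per gene from Cufflinks 2.2.1 without stating a further scaling between samples, the gene annotation or what was done with reads matching more than a single gene. FPKM are not counts, so no count model was used. Depth was estimated from the steps between low FPKM values of 1977 genes (74.7% to 79.5% of these values came out within 0.1 of a whole read), and covers counting error only. In 1 file, 25 symbols turned into dates were restored by position.

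Members and lists were chosen with earlier results of these data known. Differences were tested with limma 3.58.1 in R 4.3.3 on log2(FPKM + 0.1) values, allowing for a mean-variance trend, for 19526 genes averaging above 0.1 FPKM, with Benjamini-Hochberg adjustment over these genes and no covariate. Single members and isoform ratios were compared with two-sided exact permutation tests. Named are members with an adjusted p under 0.05, up to 10 per direction with the smallest unadjusted p under 0.05, the highest member and the largest positive and negative difference in each complex (at a mean of at least 1 FPKM), listed isoforms and members at 0, and for other lists the largest differences and 5 regulators, other members being named for non-overlapping days or as contrasts after their values were seen. Transcripts, coordinates (counted from 1) and shared runs came from GENCODE vM21, and promoters from RefSeq; near-identical stretches were found with blastn 2.17.0. Simulated data held 200 changed genes among about 19526, drawn from all genes tested whatever their level. In these data, limma recovered 0% at a log2 change of 1, 33% at 2 (3 false calls) and 54% at 3 (8 false calls). Alternatives were 2 pseudocounts, 3 filters (that above 10 FPKM added after seeing the data) or none, 3 scalings, no variance trend, a replicate block and leaving out each sample.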

Additional observations from a re-analysis of the deposited data

How the results depend on the processing

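The median difference of the members stayed negative under all 16 alternatives, between −0.27 and −0.13, with the extremes without day 14 replicates 2 and 1. Between 65 and 75 members had a lower mean on day 14, out of 70 to 81 tested. The 65 were of 70 with the filter above 10 FPKM, and the 75 of 80 with scaling to the same sum without Mir and Snor genes. Without day 14 replicate 1 it was 67 of 80. No member had an adjusted p under 0.05 in limma under any alternative, and the lowest was 0.104, without day 14 replicate 2. The count of members with an unadjusted p under 0.05 and a lower level on day 14, 8 in the report, was 16 with median-of-ratios scaling, 18 with scaling to the same sum without Mir and Snor genes, 1 without the variance trend, and 2 to 14 when each sample was left out in turn. The count for higher levels, 1 in the report, was 0 above 10 FPKM and 1 to 2 when each sample was left out. The count of members with day 14 wholly below day 10, 20 in the report, was 21 to 42 when each sample was left out, against 8.97% to 18.7% of all genes, which follows from having fewer samples to separate. The cause of the other shifts was not tested.

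Signs reversed for small differences when samples were left out in turn: *Sdha* ran from −0.10 to 0.013, *Atp5g3* from −0.23 to 0.0033, *Cox8c* from −1.29 to 0.88, *Gabpa* from −0.051 to 0.26, *Nrf1* from −0.43 to 0.024, *Ppargc1a* from −0.53 to 0.20 and *Tfam* from −0.030 to 0.037. *Tfam* was −0.0093, −0.015 and −0.037 under the 3 scalings. The log2 ratio of *Cox6a2* over *Cox6a1* ran from −1.15 to 0.60 and was 0.27 with a pseudocount of 1, that of *Cox7b2* over *Cox7b* ran from −2.20 to 0.051, that of *Cox8b* over *Cox8a* from −2.53 to 0.072 and that of *Atp5g1* over *Atp5g3* from −0.33 to 0.060.

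The samples share replicate numbers across days, but their deviations from the day means correlated only at 0.058, −0.0058 and 0.089 for the same-numbered pairs, so the numbers were not taken as pairing. With the replicate block the members' median was −0.21 and 6 members were lower at an unadjusted p under 0.05, with 0 past an adjusted p of 0.05. With 3 samples a day, most differences seen here are below the sizes that were simulated. The changed genes of the simulation were drawn from all genes tested, whose median level was 1.76 FPKM, against 63.3 FPKM for the members. Recovery for genes at the level of the members was not examined.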

Other observations

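Further electron carriers and subunits outside the symbols chosen also had levels far below those of their partners. *Cycs*, the cytochrome c of most tissues that carries electrons from complex III to complex IV, was listed at 0.572, 0.573 and 0.810 FPKM on day 10 against 0.230, 0.886 and 0.843 FPKM on day 14. *Cyc1*, the cytochrome of complex III to which it binds, stood at 75.5, 65.0 and 62.2 FPKM on day 10 and 47.7, 77.4 and 57.8 FPKM on day 14. *Ndufab1*, the acyl carrier protein of complex I, was listed at 2.39 to 5.86 FPKM in all samples. The days overlapped for these genes, and sequence shared by *Cycs* and *Ndufab1* with other genes was not examined.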
